A study of Mus musculus with 24 samples.

Results

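The retina of the NZO/HlLtJ mouse was compared with the retinas of 4 other classical laboratory strains, using RNA sequencing. The NZO/HlLtJ group was taken by its strain label and holds 3 of the 24 libraries of the series. The comparison group holds the 12 libraries labelled 129S1/Svlmj, C57BL/6J, NOD/ShiLtJ and A/J, with 3 libraries of each strain. All mice were wild type and 28 days old. The 9 libraries of the wild-derived strains CAST/EiJ, PWK/PhJ and WSB/EiJ complete the series and are cited below only to place the NZO values. The series was made to study retinal genes that bear on seeing contrast and on sensing blur.

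NZO, short for New Zealand Obese, is an inbred strain known for polygenic obesity and for diabetes in males. The retina turns light into nerve signals in rods and cones, passes them through bipolar cells, shapes them in horizontal and amacrine cells, and sends them to the brain from ganglion cells. Each inbred strain carries its own fixed set of alleles.

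Values are read counts scaled to the total reads of each library (cpm) as the authors deposited them, with library depths of 59.4 to 78.1 M reads in the 15 libraries compared, 63.8 to 69.6 M in NZO, and 57.6 to 77.9 M in the 9 wild-derived libraries. A value of 3 reads corresponded to 0.0384 to 0.0505 cpm in the 15 libraries and to no more than 0.0521 in the others, which limits what could be told from 0 by counting error. The RNA was that of retina in all 3 NZO libraries. The 26 rod markers summed to 18722, 18081 and 18229 cpm in replicates 1, 2 and 3 of NZO, the order used throughout, and to 15512 to 19390 (median 17056) in the 12 others, so the groups overlapped. Across genes, the log2 values of the NZO libraries correlated at 0.996 to 0.998 with each other and at 0.975 to 0.983 with libraries of the other strains. Genes are not independent replicates, so these coefficients are descriptions.

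Some libraries held RNA of tissue next to the retina. The 23 lens genes summed to 25.1, 69.7 and 48.1 cpm in NZO, and to 2014 in 129S1/Svlmj replicate 2, 2447 in NOD/ShiLtJ replicate 2 and 279.8 in C57BL/6J replicate 2. The lens gene with the highest cpm was the crystallin Cryaa, with 7.07, 13.97 and 8.61 cpm in NZO and up to 755 in the others. The NZO sums lay within the range of the libraries other than these 3, and the counts of called genes are given with and without the 3. Xist RNA, made from the inactive X chromosome of females, stood at 962 cpm in 129S1/Svlmj replicate 3 and at 906 in C57BL/6J replicate 3, and at no more than 3.12 in the other 13 libraries compared. All 3 NZO libraries held RNA of Y-linked genes, and genes on X and Y were left out.

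A gene counted as apart when NZO differed in the same direction from each of the 4 strains, and this held for 301 of 15811 genes tested, or 1.90%. NZO was higher at 132 genes (0.835%) and lower at 169 (1.07%). The higher count includes genes, such as Htr1a and Duxbl1, that reached the limit for testing only through NZO. That limit is a mean of 0.5 cpm over the 15 libraries. How many genes did so was not counted, and they also enter the shares and windows below. At 300 of these 301 genes the 3 NZO libraries did not overlap with the 12 others, while 1149 of all genes tested (7.27%) showed no overlap, 535 with NZO higher and 614 with NZO lower. The rule for apart favours genes without overlap, and the genes named as most raised or lowered had to show none. Lack of overlap is therefore no separate support for these calls. Differences are given on the scale of log2(cpm + 1), which understates those of genes with low values. Reads of all strains were aligned to the same reference genome, GRCm38. How far sequence that differs from it in NZO changed the values, low ones among them, was not tested. The median size of the difference to the nearest strain was 0.44 among the 301 genes, and 14 higher and 15 lower genes differed from it by at least 1. Without the 3 lens-bearing libraries, 299 of the 301 genes were tested, all 299 in the same direction, and 240 of them were again apart. In all, 118 higher and 145 lower genes were apart in that fit. Fits that left out 1 of the 15 libraries in turn kept the call of 177 genes each time.

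The same rule set NZO beside the other strains. It put 329 genes of 129S1/Svlmj apart from the other 4 strains of the comparison (2.08%), 336 of C57BL/6J (2.13%), 324 of NOD/ShiLtJ (2.05%) and 241 of A/J (1.52%). Without the 3 lens-bearing libraries these counts were 280, 269, 306 and 208. The 301 genes of NZO lay between the counts of all libraries, and differences between the counts were not tested. The strain nearest to NZO was C57BL/6J at 92 of the 301 genes, NOD/ShiLtJ at 84, 129S1/Svlmj at 71 and A/J at 54. A less strict question is whether NZO differed from the mean of the 4 strains. It did at 3589 genes (22.7%), of which 1564 (9.89%) were higher and 2025 (12.8%) lower, beside a median difference of -0.01 over all genes tested. Without the 3 lens-bearing libraries 1725 were higher and 2127 lower. The counts of all libraries fell to 970 higher genes without NZO/HlLtJ replicate 1, to 1034 higher without NZO/HlLtJ replicate 2, and to 1327 lower without NZO/HlLtJ replicate 2. The SE and p-values against the mean of the 4 strains, here and below, rest on the spread among the 3 libraries within strains. They leave out the differences among the 4 strains, which can be wide. With the 12 other libraries taken as a single group, so that differences among the 4 strains entered the spread, 353 genes were higher and 481 lower.

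Set against all 7 other strains in a fit of the 24 libraries, NZO stood apart at 79 of 15856 genes (0.498%), at 51 as the highest strain (0.322%) and at 28 as the lowest (0.177%). Without the 3 lens-bearing libraries it was the highest at 44 and the lowest at 25. Of the 79 genes, 77 were among the 301, which is 25.6% of that list. The mean of PWK/PhJ lay nearer to NZO than to the nearest classical strain at 130 of the 301 genes, that of CAST/EiJ at 114 and that of WSB/EiJ at 53. These counts include means far beyond the NZO level.

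**Figure D1:**
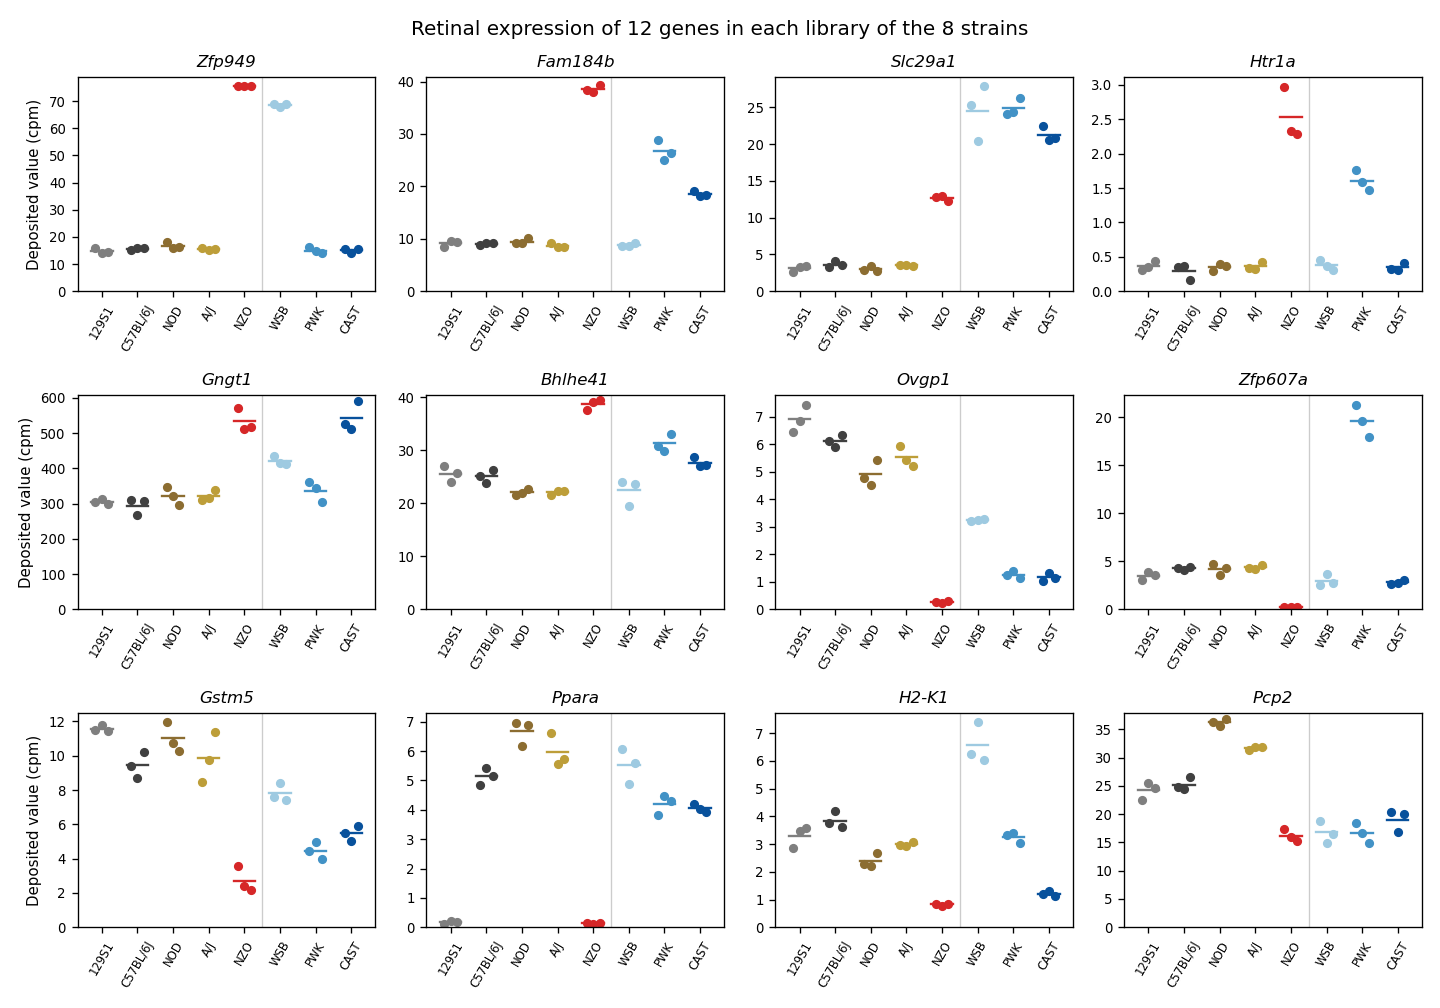
Deposited values (cpm, linear axes from 0) of 12 genes in each library of the 8 strains, with points for libraries and a line for the mean of 3. NZO (red) lies above or below all 12 libraries of the 4 strains to its left at 11 genes, while 129S1/Svlmj shares its low level of Ppara, and wild-derived strains (right of the grey line) share the NZO level at some, such as WSB/EiJ at Zfp949.

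Zfp949, a zinc finger gene at chr9:88548020-88571062 (GRCm38), had 75.5, 75.7 and 75.6 cpm in NZO and 14.2 to 18.3 (median 15.7) in the 12 others. The NZO libraries were close to each other and far above the rest, with a difference to the nearest strain, NOD/ShiLtJ, of 2.11 (adjusted p = 3.87e-13). Among wild-derived strains the means were 68.5 in WSB/EiJ, 14.99 in PWK/PhJ and 15.1 in CAST/EiJ, so the high level was shared with WSB/EiJ. Fam184b, at chr5:45529705-45639615, had 38.4, 37.96 and 39.3 cpm against 8.35 to 10.1 (median 9.16). All NZO libraries were above all others, by 1.92 from the nearest strain (adjusted p = 1.15e-12), and NZO was also the highest of the 8 strains. Its difference from all 7 was called too (adjusted p = 7.01e-06).

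Slc29a1, a nucleoside transporter of the cell membrane, had 12.8, 12.99 and 12.2 cpm in NZO and 2.67 to 4.06 (median 3.42) in the others. NZO was the highest classical strain without overlap (1.57 to the nearest strain, adjusted p = 4.24e-09), yet the 3 wild-derived strains were higher still, with means of 24.5 in WSB/EiJ, 24.9 in PWK/PhJ and 21.3 in CAST/EiJ. Gk5, of the glycerol kinase family, had 6.28, 5.53 and 6.101 cpm against 1.398 to 1.82 (median 1.55). The NZO libraries again did not overlap with the 12 others (1.38, adjusted p = 1.32e-08), but CAST/EiJ reached a mean of 141 cpm. Htr1a, an inhibitory serotonin receptor, had 2.97, 2.33 and 2.29 cpm against 0.168 to 0.447 (median 0.353). Its level in the other 4 strains was low, and NZO exceeded all 7 other strains (1.36 to the nearest classical strain), with PWK/PhJ next at a mean of 1.61. The limit for testing is a mean of 0.5 cpm over the 15 libraries, and Htr1a reached it only through NZO, so no p-value is given.

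The other 6 genes named as most raised in NZO had smaller steps to the nearest strain. Rras2, a small GTPase of the Ras family, had 4.68, 4.02 and 4.92 cpm against 1.45 to 2.09 (median 1.78). Lyrm7, an assembly factor of respiratory complex III, had 5.8996, 5.39 and 5.69 cpm against 0.578 to 2.73 (median 0.685), with C57BL/6J (mean 2.52) between NZO and the rest. Tex15, known for its role in male germ cells, had 8.198, 8.24 and 7.83 cpm against 1.19 to 4.63 (median 1.79), again with C57BL/6J as the nearest strain. At each of these genes the NZO libraries were the 3 highest of the 15, with differences to the nearest strain of 0.94, 0.92 and 0.85. Invs, which encodes the ciliary protein inversin, had 13.4, 12.3 and 11.8 cpm against 5.02 to 6.54 (median 5.53). Col19a1, a collagen chain, had 8.45, 7.93 and 7.42 cpm against 1.24 to 4.22 (median 2.92). NZO was highest in both cases, but the call of Col19a1 (adjusted p = 0.0163) was lost in 4 of the 15 fits that each left out 1 library, with adjusted p from 0.0553 to 0.0887, the highest without NZO/HlLtJ replicate 1. Duxbl1, a double homeobox gene, had 2.397, 1.79 and 2.61 cpm against a range from a listed 0 to 0.689 (median 0.002099). The NZO libraries were higher, but the gene reached the limit for testing only through NZO and fell below it in each fit that left out 1 NZO library. In addition, 96.1% of the 31-base words in its exons also occur in other genes, mostly Duxbl2, so which copy gave the reads is uncertain.

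Ovgp1, an oviduct glycoprotein related to chitinases, had the largest step to the nearest strain among protein-coding genes lowered in NZO without overlap. It lies at chr3:105973711-105987424 and had 0.271, 0.244 and 0.288 cpm in NZO against 4.52 to 7.43 (median 5.93) in the 12 others. NZO stood below all of them and below all 7 strains, with -2.22 to NOD/ShiLtJ (adjusted p = 3.82e-12). Of its exon bases 28.7% overlap with the gene model Gm42890 on the same strand, chosen after its values were seen, which moved with it, from 2.14 to 3.66 (median 2.57) in the others to 0.148, 0.164 and 0.343 cpm in NZO, and the reads of the 2 models are not separable with certainty.

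Zfp607a and Zfp607b are neighbouring zinc finger genes on chromosome 7. Zfp607a had 0.211, 0.204 and 0.206 cpm in NZO against 3.04 to 4.74 (median 4.25), and Zfp607b 1.36, 1.28 and 1.24 cpm against 4.499 to 7.85 (median 6.79). Both were lowest in NZO among all 8 strains, without overlap, at -1.89 and -1.31 from the nearest classical strain (adjusted p = 3.5e-10 and 9.87e-09). Words shared with other genes made up 12.5% of the exons of Zfp607a and 20% of those of Zfp607b. Gstm5, a glutathione S-transferase of the mu class, had 3.54, 2.41 and 2.15 cpm against 8.47 to 11.99 (median 10.5). The 3 NZO libraries were the lowest of the series (-1.51, adjusted p = 4.55e-07).

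Ppargc1b, a coactivator of genes for mitochondrial energy metabolism, had 4.27, 5.22 and 5.32 cpm in NZO and 11.2 to 24.1 (median 15.3) in the 12 others. NZO had 0.301 of the mean of the others with no overlap (-1.12 to the nearest strain, adjusted p = 2.98e-07), and CAST/EiJ was as low, at a mean of 4.396. Rnf7, a subunit of cullin ubiquitin ligases, had 5.43, 4.99 and 4.65 cpm against 10.8 to 13.1 (median 11.5). It too was low in all 3 NZO libraries (-1.06, adjusted p = 1.91e-07), as in CAST/EiJ and PWK/PhJ, but 38.1% of its exon words are shared with other genes. H2-K1, which encodes a classical class I antigen-presenting chain, had 0.849, 0.762 and 0.856 cpm against 2.203 to 4.18 (median 3.02). NZO lay below every other classical library (-0.89, adjusted p = 2.41e-06), and this gene differs in sequence between strains and shares 22.8% of its exon words with others, so the level is uncertain.

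Ccdc187, the lipase gene Lipo3, the matrix gene Sned1 and the sperm protein gene Zan were lowered in NZO as well. Ccdc187 had 0.439, 0.633 and 0.533 cpm against 2.32 to 3.71 (median 2.87), Lipo3 1.67, 1.61 and 1.51 cpm against 4.74 to 6.23 (median 5.28) and Zan 0.835, 1.02 and 0.769 cpm against 2.18 to 4.56 (median 3.12). For each of these, all 3 NZO libraries lay below all 12 others, by -1.24, -1.19 and -0.96 from the nearest strain. WSB/EiJ was lower still at Lipo3 (mean 1.38), and 38.8% of the exon words of Lipo3 are shared with other genes. Sned1 had 5.197, 4.76 and 5.63 cpm against 6.86 to 22.6 (median 18.2). It was low in all 3 NZO libraries, but its call (adjusted p = 0.0342) was lost in 9 of the 15 fits that each left out 1 library, with adjusted p from 0.05 to 0.187, the highest without 129S1/Svlmj replicate 2, and it was not made without the 3 lens-bearing libraries (adjusted p = 0.173), while 19.6% of its exon bases overlap other genes.

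Some further genes were chosen after their values were seen. Col6a3, a collagen chain of connective tissue, had 5.797, 29.9 and 25.3 cpm in NZO against 0.374 to 6.49 (median 0.779). It was the 1 apart gene with overlap, since NOD/ShiLtJ replicate 2, which bears lens RNA, lay above NZO replicate 1 and the NZO replicates differed widely. Its call (adjusted p = 0.0105) was lost in 4 of the 15 fits that each left out 1 library, with adjusted p from 0.0616 to 0.0828, the highest without NZO/HlLtJ replicate 2. Egfr, the receptor for epidermal growth factor, had 4.32, 3.78 and 4.02 cpm against 5.22 to 10.5 (median 8.71). NZO was the lowest of the 8 strains (-0.41 to the nearest classical strain), and the Egfr call was lost without NZO/HlLtJ replicate 2 (adjusted p = 0.0542). Chrna5, a nicotinic receptor subunit, had 3.65, 3.82 and 3.23 cpm against 0.537 to 1.89 (median 1.48) and was highest in NZO (0.79, adjusted p = 7.07e-06).

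Another gene at which NZO stood apart started within 1 Mb of 172 of the 301 (57.1%), and within 1 Mb of 3504 of the other 15510 genes tested (22.6%). The difference between these shares was not tested, and 38 of the 301 lie inside another gene, so that neighbours may share reads. Windows of 5 Mb with at least 5 of them numbered 11 and held 81 of the 301 genes. Over the 19 autosomes, the share of tested genes that were apart was 3.49% on chromosome 4, 3.07% on 6, 3.02% on 9, 3.01% on 11 and 2.97% on 3, down to 0.655% on 18 and 0.405% on 19. The spread over chromosomes was not tested. By type of gene model, 85 protein-coding genes were higher in NZO and 136 lower, together 1.77% of the 12504 tested. Long noncoding RNAs gave 17 higher and 19 lower of 965 (3.73%), and transcribed unprocessed pseudogenes 5 higher and 1 lower of 37 (16.2%). Of the 301 genes, 100 overlapped another gene in over 10% of their exon bases or shared over 10% of their 31-base words with another. This left 87 higher and 114 lower genes with neither. Counted among those are H2aw, Prxl2a and Rbis, which had no match in the annotation and could not be checked.

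**Figure D2:**
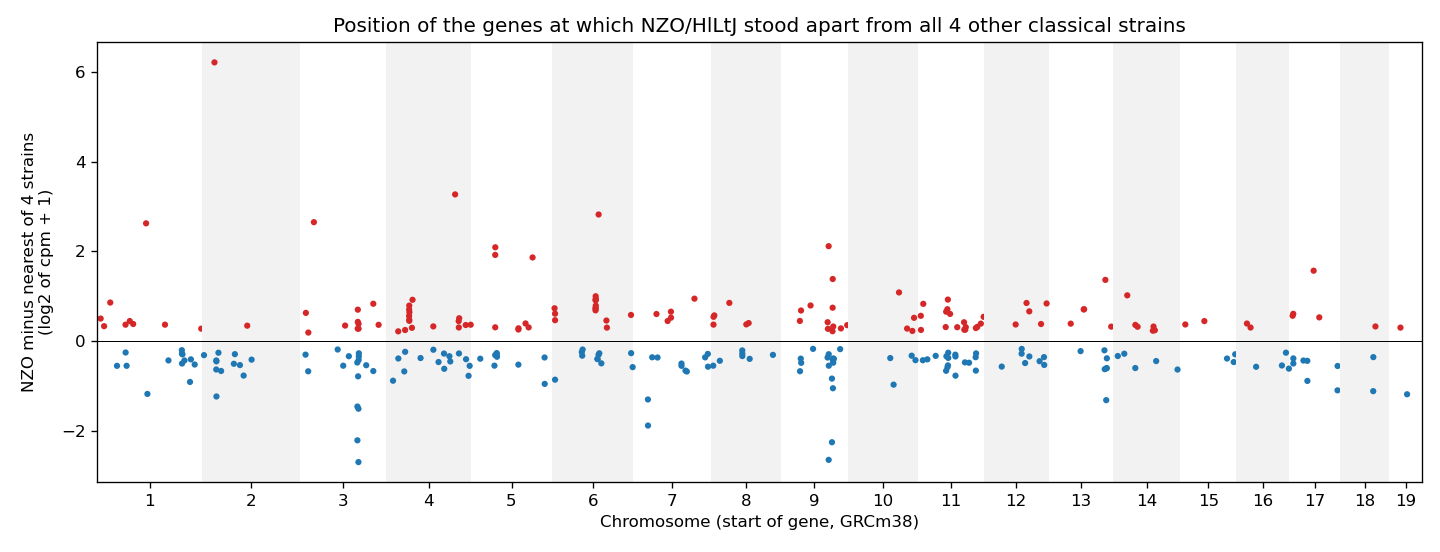
Position on chromosomes 1 to 19 (GRCm38) of 300 of the 301 genes at which NZO stood apart, with the log2(cpm + 1) difference of NZO to the nearest of the 4 strains on the vertical axis (red higher, blue lower in NZO). The mitochondrial gene mt-Nd2 is not drawn, and vertical stacks of points mark windows such as that on chromosome 3 with 14 genes.

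The window with the most genes was chromosome 3 from 105 to 110 Mb, where NZO stood apart at 14 of 65 tested genes, higher at 5 and lower at 9. It holds Ovgp1, Gstm5, Gstm4 and, chosen after the values were seen, the noncoding RNA 4933431E20Rik and the prokineticin gene Prok1. 4933431E20Rik had 0.673, 0.546 and 0.549 cpm in NZO against 8.87 to 11.3 (median 10.6), and Prok1 0.0294, 0.0288 and 0.0315 cpm against 0.691 to 3.13 (median 1.54). Both were low in all 3 NZO libraries (-2.70 and -0.79 to the nearest strain), the latter below the level of 3 reads, and 35.4% of the exon bases of Prok1 overlap a gene on the opposite strand. Gstm4, a relative of Gstm5, went the other way, with 1.2005, 1.16 and 1.08 cpm against 0.4596 to 0.7602 (median 0.555). NZO was the highest classical strain there (0.38, adjusted p = 0.00444), so 2 enzymes of the same class in the same window moved in opposite directions.

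In NZO, Gstm5 and 4933431E20Rik fell together, and they start close to each other on opposite strands with 13.9% of the exon bases of Gstm5 overlapping. Of the exon bases of 4933431E20Rik 16.7% overlap Gstm5 or Eps8l3. On chromosome 5, Fam184b and the noncoding RNA 9630001P10Rik are arranged in the same way and rose together in NZO. 9630001P10Rik, chosen after its values were seen, had 9.81, 10.98 and 9.82 cpm against 1.19 to 1.92 (median 1.57). It was highest in NZO among all 8 strains (2.09 to the nearest classical strain), and 9.32% of its exon bases overlap Fam184b on the opposite strand, while 20.9% of those of Fam184b overlap 9630001P10Rik and Gm42521, so part of these reads is not assigned with certainty. The promoters of these 2 pairs are shown because their genes move together, each from 250 bases before to 50 after the start of transcription (RefSeq, GRCm38.p6, reference sequence and not that of NZO). They lie at chr3:107895604-107895903 (+ strand), chr3:107896164-107896463 (-), chr5:45639452-45639751 (-) and chr5:45639025-45639324 (+).
Gstm5: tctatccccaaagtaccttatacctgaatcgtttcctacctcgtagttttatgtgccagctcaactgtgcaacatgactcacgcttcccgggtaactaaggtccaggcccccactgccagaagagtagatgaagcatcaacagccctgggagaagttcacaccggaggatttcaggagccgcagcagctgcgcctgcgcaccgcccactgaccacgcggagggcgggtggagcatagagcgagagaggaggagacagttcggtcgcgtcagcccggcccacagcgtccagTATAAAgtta
4933431E20Rik: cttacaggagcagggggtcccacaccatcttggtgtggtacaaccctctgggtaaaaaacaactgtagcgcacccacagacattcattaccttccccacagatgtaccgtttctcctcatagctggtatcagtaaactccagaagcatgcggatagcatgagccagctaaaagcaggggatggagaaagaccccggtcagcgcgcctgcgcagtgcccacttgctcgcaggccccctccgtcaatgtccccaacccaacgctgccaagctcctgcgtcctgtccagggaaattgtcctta
Fam184b: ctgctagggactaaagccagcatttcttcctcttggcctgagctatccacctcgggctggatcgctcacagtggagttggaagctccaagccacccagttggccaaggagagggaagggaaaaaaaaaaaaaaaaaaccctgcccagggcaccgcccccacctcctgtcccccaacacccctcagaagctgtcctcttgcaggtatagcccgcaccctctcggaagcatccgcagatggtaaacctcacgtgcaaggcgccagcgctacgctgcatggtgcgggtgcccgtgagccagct
9630001P10Rik: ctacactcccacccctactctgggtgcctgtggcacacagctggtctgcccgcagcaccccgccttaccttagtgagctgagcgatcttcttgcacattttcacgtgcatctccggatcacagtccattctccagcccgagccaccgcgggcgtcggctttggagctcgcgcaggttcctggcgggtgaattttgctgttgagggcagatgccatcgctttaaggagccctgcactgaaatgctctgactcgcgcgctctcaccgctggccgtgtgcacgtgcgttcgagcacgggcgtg
Capitals mark matches to 3 motifs searched on both strands, TAATCC, which is known to bind photoreceptor homeodomain factors, TATAAA and CCAAT. The only match in the 4 windows was 1 TATAAA at Gstm5, and of 32851 mouse promoters 7.06% held TAATCC, 13.6% TATAAA and 37.4% CCAAT. A lack of a match says only that these letters are absent from this window.

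On chromosome 6 from 80 to 85 Mb, NZO stood apart at 10 of 52 tested genes, higher at 8. Lrrtm4, a synaptic adhesion protein, had 26.9, 25.9 and 23.7 cpm in NZO against 10.5 to 15.8 (median 13.7), and was chosen after its values were seen. All 3 NZO libraries were above all others, also above the wild-derived strains (0.74 to the nearest classical strain, adjusted p = 2.26e-05). The other 7 higher models of the window lie inside Lrrtm4 on the same strand, so their reads and those of Lrrtm4 are not separable with certainty, and 25.1% of its own exon bases overlap a gene on the opposite strand. Among them Gm20371 had 6.78, 5.98 and 6.29 cpm against 1.93 to 3.23 (median 2.36) and Gm44240 7.11, 6.94 and 6.68 cpm against 3.16 to 4.73 (median 3.51).

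A further group of raised models in NZO lies on chromosome 4 from 40 to 45 Mb, where all 6 apart genes of 72 tested were higher in NZO. They were chosen after their values were seen, are copies within a repeated region, and share 69% to 100% of their exon words with other genes. Gm17167 had 22.2, 16.3 and 20.9 cpm in NZO against a range from a listed 0 to 11.2 (median 3.902), and Gm10593 9.53, 7.57 and 9.99 cpm against a range from a listed 0 to 5.45 (median 0.134). NOD/ShiLtJ was the nearest strain at both, while 129S1/Svlmj and A/J had means of 0.117 and 0.0228 cpm of Gm17167. NZO had the highest values of both models among the 8 strains, but which copy they came from is uncertain. Of the other 4 models, Gm13301, Gm17081 and Gm20878 lost the call in 2, 2 and 3 of the 15 fits that each left out 1 library (adjusted p up to 0.0708, 0.065 and 0.0828). Gm13301 and Gm20878 also lost it without the 3 lens-bearing libraries (adjusted p = 0.0524 and 0.0506).

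Chromosome 9 held 3 windows with at least 5 such genes, the third from 35 to 40 Mb with 5 of 33. From 95 to 100 Mb NZO stood apart at 9 of 37 genes, among them Gk5 and Rnf7, which moved in opposite directions. From 85 to 90 Mb it did so at 7 of 34, among them Zfp949 and, chosen after its values were seen, the noncoding RNA 9430037G07Rik. The latter had 0.267, 0.213 and 0.241 cpm in NZO against 6.24 to 11.4 (median 8.48). It was low in all NZO libraries (-2.65, adjusted p = 1.17e-12), and WSB/EiJ, which shared the high Zfp949 level, also shared this low level at a mean of 0.2097, and 45.8% of its exon words are shared with other genes. Me1, the cytosolic malic enzyme, lies there too, with 11.3, 11.97 and 11.95 cpm against 14.5 to 22.1 (median 17.03), and was chosen in the same way. NZO was the lowest of the 8 strains (-0.37, adjusted p = 0.000268), although 36.9% of the exon words of Me1 are shared with other genes.

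The gene model with the widest step between NZO and the other 4 strains was Gm13340, a pseudogene chosen after its values were seen. It had 150.2, 123 and 126 cpm in NZO against 0.509 to 0.866 (median 0.755) in the 12 others (6.21 to C57BL/6J). All 3 NZO libraries were high, as were CAST/EiJ and PWK/PhJ with means of 1786 and 1236 cpm, while WSB/EiJ had 0.601. The model is a nuclear copy of the mitochondrial gene mt-Co1, a subunit of cytochrome c oxidase, and lies inside Myo3a on the opposite strand. Their 1545 bases aligned end to end with 37 mismatches, or 97.6% identity. mt-Co1 itself had 3645, 3091 and 3161 cpm in NZO against 2536 to 3778 (median 3036), so the groups overlapped, and its mean was lower in CAST/EiJ (1937) and PWK/PhJ (1142). Reads of mt-Co1 that carry a strain's own bases and reads of the nuclear copy cannot be told apart from these values. The 90 aligned bases with the most mismatches in the reference are shown with mismatches in capitals, since they are what the assignment of reads rests on (GRCm38, chr2:22589114-22589203, - strand, and chrM:5772-5861, + strand).
Gm13340: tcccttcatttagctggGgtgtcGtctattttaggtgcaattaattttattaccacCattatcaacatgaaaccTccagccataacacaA
mt-Co1: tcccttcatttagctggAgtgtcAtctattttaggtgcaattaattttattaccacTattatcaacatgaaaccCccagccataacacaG
These 90 bases hold 5 of the mismatches.

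Of the 13 protein genes encoded by mitochondrial DNA, 2 were below the mean of the 4 strains in NZO, beside 12.8% of all genes tested. Both were so in each fit that left out 1 library. The median difference of the 13 was -0.18 beside -0.01 over all genes tested. mt-Nd2, a subunit of respiratory complex I, had 72.8, 74.02 and 74.1 cpm against 117 to 207 (median 141). It was apart, with all 3 NZO libraries below all 12 others (-0.84, adjusted p = 0.00218), near PWK/PhJ at 69.3. Of its words, 13.5% are shared with the nuclear copy Gm13339, which was chosen after its values were seen and had 0.0172, 0.0334 and 0.0367 cpm in NZO against 0.0137 to 0.0425 (median 0.0176), near or below the level of 3 reads. mt-Nd1 had 379, 333 and 354 cpm against 447 to 749 (median 542). It was lower in all NZO libraries than in the 12 others and below the mean of the 4 strains (-0.67 ± 0.11 (SE), adjusted p = 0.000384). Among 35 nuclear genes of complex I, 4 were above the mean of the 4 strains, beside 9.89% of all genes tested, with a median of 0.04. Of these 4, only Ndufs5 (0.33) was called in every fit that left out 1 library.

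Members of the gene lists below are named where their call against the mean of the 4 strains held in each of the 15 fits that left out 1 library and in the fit without the 3 lens-bearing libraries, unless the loss is given. That choice was made after the values were seen. The number of called members that kept the call in all of these fits is given with the counts. Below, all fits means these fits only, and the other alternatives were not part of the rule. Some members named lost the call there, such as Gnb1, Fgf2, Nefl and Drd2, each called in 26 of 27 alternatives. Over all genes tested, 9.89% were called above and 12.8% below the mean of the 4 strains, and no list was tested against these shares. Small medians moved with the choices made. Without the 3 lens-bearing libraries the median was -0.01 for horizontal cells, -0.01 for Muller glia, -0.03 for amacrine cells and 0.07 for blood. With quantile normalization it was -0.05 for horizontal cells, -0.03 for amacrine cells, -0.03 for neuropeptides and 0.04 for zinc fingers. That scaling also gave -0.03 for TGF-beta and BMP signalling, -0.02 for glycolysis and lactate transport and 0.06 for blood. Median-ratio scaling gave -0.01 for Muller glia, -0.02 for glycolysis and lactate transport and 0.03 for zinc fingers. Each of these stands beside the value given below. The median of 0.04 given above for nuclear complex I was 0.05 with quantile normalization. Among list members named for a call against the mean, Serpina3n, Fgf2, Cebpd, Nefl, Csf1r, Hba-a2, Ndufs5, Acaca, Hmgcs1, Pgam1, Prdx1, H2-D1, H2-Q4 and Ifit3 overlap or share words with other genes by over 10%, up to 92.6% of words at Hba-a2, and Nnt is annotated as 2 overlapping models. For Pcdhb6, named below, overlap and shared words are not given. In whole retina, fewer cells of a type and less RNA per cell cannot be told apart.

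Of 25 rod genes tested, 10 were above the mean of the 4 strains in NZO (7 in all fits), beside 9.89% of all genes, and none was below it. The other 15 did not pass, and the median difference was 0.06. Gngt1, the gamma subunit of rod transducin, had 571, 513 and 517 cpm in NZO against 267 to 346 (median 309.6). It was apart, with each NZO library above all 12 others (0.73 to the nearest strain, adjusted p = 3.3e-06), and CAST/EiJ had a like mean of 543. Pdc, phosducin, which binds transducin, had 833, 766 and 743 cpm against 265 to 759 (median 501). NZO overlapped with C57BL/6J, the next strain, and exceeded the mean of the 4 strains (0.74 ± 0.06 (SE), adjusted p = 7.28e-08). Gnb1 (0.25), Pde6a (0.22), Rcvrn (0.27) and Guca1a (0.22) were higher as well. Guca1b (0.24) was higher too, but lay at -0.09 without the strain 129S1/Svlmj. The rod factor Nrl (adjusted p = 0.306) did not pass.

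Cone genes gave a mixed picture. Of 13 tested, 2 were above and 4 below the mean of the 4 strains (4 of 6 in all fits), with a median of -0.06. The 15 markers summed to 441, 414 and 416 cpm in NZO against 434 to 559 (median 466). NZO was at the low end of the 15 libraries with slight overlap, and Opn1sw had the highest cpm of the list. Slc24a2, the cone exchanger of sodium for calcium and potassium, had 31.2, 30.96 and 32.03 cpm against 35.6 to 50.8 (median 46.4). It was apart and lower in all 3 NZO libraries (-0.20, adjusted p = 0.0314), but that call was lost in 6 of the 15 fits that each left out 1 library, with adjusted p from 0.0621 to 0.158, the highest without NZO/HlLtJ replicate 2, and it had adjusted p = 0.0519 without the 3 lens-bearing libraries. Gnat2, the cone transducin alpha subunit, had 32.3, 29.9 and 29.03 cpm against 33.2 to 44.3 (median 37.7), without overlap, and was below the mean (-0.31 ± 0.05 (SE), adjusted p = 0.000192). The cone phosphodiesterase genes Pde6c (-0.34) and Pde6h (0.54) moved in opposite directions, and NZO lay between other strains at both. Without the strain C57BL/6J, whose mean of Pde6c was 34.7 cpm, the Pde6c difference was 0.01.

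Of 18 bipolar genes, NZO was above the mean at 5 and below at 3 (6 of 8 in all fits), with a median of 0.04. Isl1, a homeodomain factor of bipolar, amacrine and ganglion cells, had 44.4, 42.1 and 39.1 cpm against 26.97 to 35.7 (median 31.1). NZO stood apart as the highest of all 8 strains (0.32, adjusted p = 0.0039). Pcp2, a modulator of G protein signalling in bipolar cells, had 17.4, 15.9 and 15.3 cpm against 22.5 to 36.8 (median 28.9). It was apart, with all NZO libraries below all others (-0.55, adjusted p = 9.24e-06) near the wild-derived strains, but 51.5% of its exon bases overlap Pet100 on the opposite strand. Prkca, the kinase that marks rod bipolar cells, had 141, 149 and 146 cpm against 55.96 to 137 (median 97.3), above every other classical library and above the mean (0.66 ± 0.04 (SE), adjusted p = 1.33e-09), without being apart. Cabp5 (-0.44) and Lrit3 (-0.32) were lower, and the homeodomain factor Otx2 (0.26) was higher.

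Among 5 horizontal cell genes Prox1 was higher in NZO (0.33) and Calb1 lower (-0.29), both in all fits, with a median of -0.10. The 6 markers summed to 115, 116 and 116 cpm against 92.5 to 113 (median 103), with no overlap and with Prox1, which other retinal cells also express, as the gene with the highest cpm. Of 13 amacrine genes 3 were lower (2 in all fits), among them Gad1 (-0.17) and Chat (-0.32), enzymes of GABA and acetylcholine synthesis, with a median of -0.05. Of 16 ganglion cell genes 3 were lower (2 in all fits), among them Nefl (-0.19) and Thy1 (-0.26), with a median of -0.08. Of 14 Muller glia genes 1 was higher and 3 lower (3 of 4 in all fits), among them Apoe (-0.55) and Aqp4 (-0.33), with a median of -0.02. Car2, a carbonic anhydrase of these glia, had 134, 127 and 128 cpm against 95.8 to 116 (median 110.05). It was apart and higher in all 3 NZO libraries (0.19, adjusted p = 0.0381), but that call was lost in 10 of the 15 fits that each left out 1 library, with adjusted p from 0.051 to 0.213, the highest without NZO/HlLtJ replicate 1, and it had adjusted p = 0.0713 without the 3 lens-bearing libraries.

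Of 11 genes of astrocytes and of reactive glia tested, 6 were below the mean of the 4 strains in NZO (4 in all fits), beside 12.8% of all genes. The other 5 did not pass, and the median was -0.33. The 13 markers summed to 28.2, 19.9 and 20.6 cpm in NZO against 29.3 to 45.2 (median 36.5), without overlap. The gene with the highest cpm was the growth factor gene Fgf2, and Pax2 and Edn2 were below the limit for testing. Serpina3n, a protease inhibitor induced in reactive astrocytes, had 0.659, 0.259 and 0.2197 cpm against 0.678 to 7.01 (median 1.86). Each NZO library was below all others (-1.24 ± 0.10 (SE), adjusted p = 1.09e-07). Gfap, the intermediate filament of these cells, had 6.28, 1.81 and 2.196 cpm against 3.79 to 14.98 (median 5.65). Replicates 2 and 3 of NZO were below all others and replicate 1 was not, and the call (-0.93 ± 0.27 (SE), adjusted p = 0.0189) was lost without NZO/HlLtJ replicate 2 (adjusted p = 0.163) and without NZO/HlLtJ replicate 3 (adjusted p = 0.119). Fgf2 (-0.33), A2m (-0.47) and Cebpd (-0.41) were lower as well.

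Markers of tissue around the retina were listed too. Of 11 genes of pigment epithelium and melanocytes, 1 was above and 6 below the mean of the 4 strains in NZO (2 of 7 in all fits), beside 9.89% and 12.8% of all genes, and the median was -0.63. Dct, an enzyme of melanin synthesis, had 3.38, 2.62 and 1.77 cpm against 3.83 to 17.3 (median 8.56), without overlap (-1.42 ± 0.26 (SE), adjusted p = 0.00077). Ttr, the thyroxine carrier made by pigment epithelium, had 3.69, 6.09 and 3.83 cpm against 4.15 to 19.8 (median 11.3), with overlap (-1.21 ± 0.27 (SE), adjusted p = 0.00369). The 15 markers summed to 153, 158 and 148 cpm in NZO and to 137 to 214 (median 166) in the others, overlapping, a sum led by Trpm3, which retina also expresses. Best1, Mlana, Slc45a2 and Oca2 were below the limit for testing.

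Of 6 genes of fibroblasts, cornea and ciliary body, 3 were below the mean of the 4 strains in NZO (1 in all fits), with a median of -0.48. Pdgfra, a growth factor receptor that retinal astrocytes also carry, was lower in all fits (-0.56). Optc, a vitreous protein secreted by the ciliary body, had 0.688, 0.417 and 0.533 cpm against 0.764 to 19.4 (median 14.04). Each NZO library was below all others, and the call (-2.62 ± 0.68 (SE), adjusted p = 0.0106) was lost without NZO/HlLtJ replicate 2 (adjusted p = 0.0537). The 11 markers summed to 11.6, 8.45 and 9.99 cpm in NZO against 9.18 to 38.9 (median 28.2), with overlap and led by Pdgfra, while Lum, Krt5, Krt14, Kera and Aldh3a1 were below the limit for testing. None of the 22 lens genes was called, and their median was -0.47 with all libraries and 0.50 without the 3 lens-bearing ones. The part of these tissues in the other differences of NZO was not tested.

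Of 9 microglia genes 3 were lower in NZO (2 in all fits), among them Csf1r (-0.34) and C1qc (-0.25), with a median of -0.15. Of 13 endothelial genes 2 were lower, with a median of -0.11, but neither kept its call in all fits. The median was -0.11 for 9 genes of pericytes and smooth muscle, and 0.03 for 4 blood genes, of which the globin Hba-a2 was lower in all fits (-0.96).

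**Figure D3:**
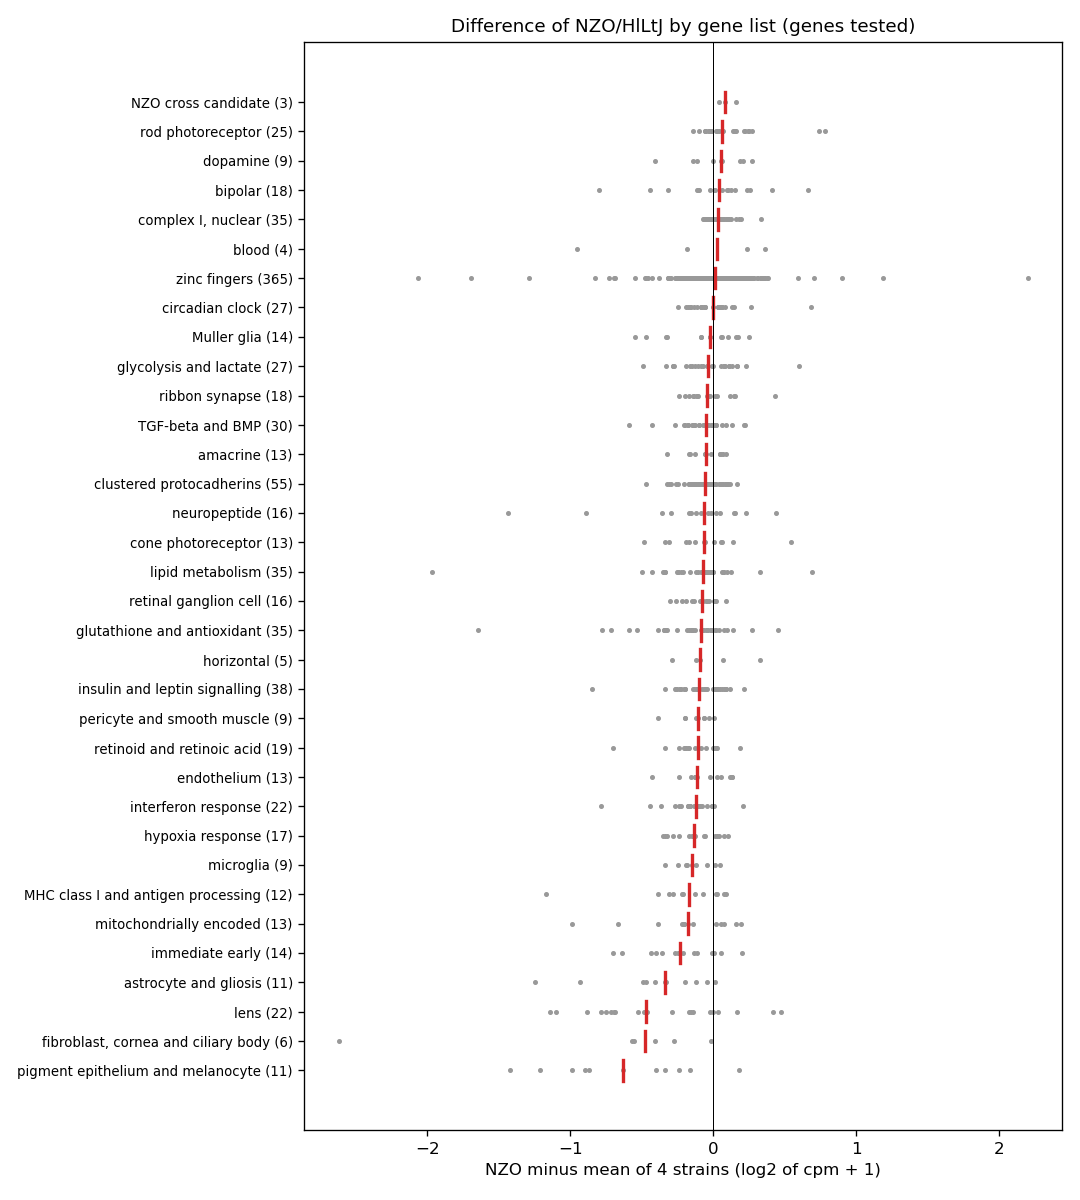
Difference of NZO to the mean of the 4 strains on the log2(cpm + 1) scale for each tested gene (grey points) of the gene lists with at least 3 tested genes, with the median as a red bar and the number tested in brackets. Medians run from -0.63 for pigment epithelium and melanocytes to 0.09 for candidate genes from NZO crosses, and the lens median changes sign without the 3 lens-bearing libraries.

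Genes of energy metabolism were described as lists, since NZO is an obesity strain. Of 38 genes of insulin and leptin signalling, 1 was above and 12 below the mean of the 4 strains, with a median of -0.10. Of these 13, 3 kept the call in all fits, among them the adiponectin receptor gene Adipor1 (0.21) and Tbc1d4 (-0.26), which acts in glucose uptake. Of 6 genes proposed in crosses with NZO, Pctp, Abcg1 and Zfp69 were tested and did not pass (adjusted p = 0.12, 0.142 and 0.711 against the mean). Zfp69 had 0.688, 0.719 and 0.643 cpm in NZO against 0.356 to 0.861 (median 0.667), with overlap. Lepr, the leptin receptor, was below the limit for testing, with 0.512, 0.575 and 0.518 cpm in NZO against 0.0559 to 0.3798 (median 0.143). All 3 NZO libraries were above the 12 others, and the difference was not tested. Ifi202b and Nmur2 were also below the limit, with at most 0.0879 and 0.101 cpm in NZO.

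Of 35 genes of lipid metabolism, 2 were above and 10 below the mean in NZO (10 of 12 in all fits), with a median of -0.07. Elovl2, an elongase of polyunsaturated fatty acids, had 27.1, 26.1 and 24.7 cpm against 12.1 to 20.3 (median 15.3). It was apart, above all other classical libraries (0.38, adjusted p = 0.00263), with a mean of 74.05 in CAST/EiJ. Cd36, a fatty acid receptor, had 0.249, 0.316 and 0.282 cpm against 0.572 to 1.14 (median 0.7698). Each NZO library was lower and the gene apart (-0.40, adjusted p = 0.00778). Ppara, the nuclear receptor that turns on fatty acid oxidation, was chosen after its values were seen, with 0.146, 0.101 and 0.141 cpm in NZO against 0.0976 to 6.94 (median 5.496). NZO and 129S1/Svlmj (mean 0.165) were low and the other 6 strains were at means of 4.05 to 6.67, so NZO was below the mean of the 4 strains (-1.97 ± 0.06 (SE), adjusted p = 4.97e-13) and not apart. The desaturase genes Fads1 (-0.25), Fads2 (-0.42) and Scd1 (-0.35) were lower, as were Acaca (-0.25), Acadl (-0.34) and Lpl (-0.35), and Hmgcs1 (0.32) was higher.

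Among 27 genes of glycolysis and lactate transport, 2 were above the mean in NZO, Hk2 (0.60) and Pgam1 (0.23), and 6 below, among them Pfkp (-0.28) and Pdk1 (-0.33) (5 of 8 in all fits), with a median of -0.03. Slc16a7, a transporter of lactate and pyruvate, had 7.58, 6.93 and 6.901 cpm against 8.701 to 11.3 (median 10.5). NZO was apart and low in each library (-0.43, adjusted p = 0.00182), with a lower mean in CAST/EiJ (5.74). Of 17 genes of the hypoxia response 5 were lower (2 in all fits), among them Hif3a (-0.35), with a median of -0.14. Bnip3, a mitophagy receptor, had 21.99, 22.1 and 21.05 cpm against 24.7 to 31.3 (median 27.7) and was apart, lower in each NZO library (-0.29, adjusted p = 0.0478). The call of Bnip3 as apart was lost in 13 of the 15 fits that each left out 1 library, with adjusted p from 0.0518 to 0.238, the highest without NOD/ShiLtJ replicate 2, it had adjusted p = 0.12 without the 3 lens-bearing libraries, and 57% of its exon words are shared with other genes.

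Of 35 genes of glutathione metabolism and antioxidant defence, 2 were above and 12 below the mean in NZO (7 of 14 in all fits), with a median of -0.08. Beside Gstm5, Nnt (-0.59), Prdx1 (-0.39), Txnrd1 (-0.33) and Cat (-0.26) were lower. Glo1, the glyoxalase that clears methylglyoxal, chosen after its values were seen, had 38.7, 35.8 and 36.9 cpm in NZO against 28.3 to 115 (median 66.8). NZO was below the mean (-0.72 ± 0.05 (SE), adjusted p = 4.39e-08) but above NOD/ShiLtJ, whose mean was 29.4, while A/J reached 104, and 13.6% of its exon words are shared with other genes.

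Of 12 genes of class I antigen presentation, 5 were below the mean in NZO (3 in all fits), beside 12.8% of all genes, with a median of -0.17. H2-K1 and H2-D1 (-0.39) and H2-Q4 (-0.31) were lower in all fits, and 7 of the 12 did not pass. H2-DMa, the only class II gene tested, did not pass. Of 22 interferon-response genes 7 were below and 1 above the mean (3 of 8 in all fits), 14 did not pass, and the median was -0.12. Ifit3 (-0.79), Oasl2 (-0.37) and Irf7 (-0.26) were lower, and A/J was as low as NZO at Ifit3. Ifi203, of the interferon-inducible family on chromosome 1, had 0.257, 0.139 and 0.108 cpm against 0.421 to 0.713 (median 0.6097). It was apart and lower in each NZO library (-0.41, adjusted p = 0.00693). Its call was lost without NZO/HlLtJ replicate 3 (adjusted p = 0.0522). Of the 15 fits that left out 1 library, Ifi203 was tested in 6 and called in 5. In the rest, and without the lens-bearing libraries, it fell below the limit for testing, and 21.9% of its exon words are shared.

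Genes of retinal signalling and timing were also listed. Of 27 clock genes, NZO was above the mean at 4 and below at 2 (2 of 6 in all fits), and the median of 0.00 changed sign between scalings. Bhlhe41, a repressor of the clock, had 37.6, 39.01 and 39.4 cpm against 21.5 to 26.9 (median 23.3). It was apart, with all NZO libraries above all others, and above all 7 strains (0.58 to the nearest classical strain, adjusted p = 1.55e-06), although 19% of its exon bases overlap a gene on the opposite strand. Btrc (-0.16) was lower. Of 14 immediate early genes 4 were lower (3 in all fits), with a median of -0.23, among them Atf3 (-0.70), Junb (-0.40) and Btg2 (-0.25). Fos, chosen after its values were seen, had 3.03, 3.28 and 4.67 cpm in NZO against 2.41 to 11.7 (median 7.24), with overlap, and lost its call (-0.64 ± 0.18 (SE), adjusted p = 0.0166) without NZO/HlLtJ replicate 1 (adjusted p = 0.11) and without NZO/HlLtJ replicate 2 (adjusted p = 0.0897). The labels do not give the hour at which the retinas were taken.

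Of 9 dopamine genes 3 were above and 1 below the mean in NZO (3 of 4 in all fits), Drd2 (0.27) and Pts (0.21) among the higher, with a median of 0.06. Qdpr, which recycles the cofactor of dopamine synthesis, had 6.81, 6.57 and 5.76 cpm against 7.46 to 9.82 (median 8.89). NZO stood apart, lower in each library (-0.32, adjusted p = 0.0297), but the call of Qdpr as apart was lost in 5 of the 15 fits that each left out 1 library, with adjusted p from 0.0522 to 0.201, the highest without NZO/HlLtJ replicate 3, it had adjusted p = 0.137 without the 3 lens-bearing libraries, and 18.6% of its exon bases overlap a gene on the opposite strand. Of 16 neuropeptide genes 2 were higher, Tacr1 (0.44) and Cartpt (0.23), and 4 lower, among them Vipr2 (-0.29) (4 of 6 in all fits), with a median of -0.06. Crhbp, which binds corticotropin-releasing hormone, had 0.688, 0.561 and 0.471 cpm against 0.504 to 7.33 (median 3.702). It was low in all NZO libraries with overlap (-1.44 ± 0.33 (SE), adjusted p = 0.0047). Penk, the enkephalin precursor, had 2.02, 1.54 and 1.62 cpm against 1.28 to 8.15 (median 4.22) and also overlapped, with 14.3% of its exon bases shared with a gene on the opposite strand. The Penk call (-0.89 ± 0.25 (SE), adjusted p = 0.0177) was lost without NZO/HlLtJ replicate 2 (adjusted p = 0.0842) and without NZO/HlLtJ replicate 3 (adjusted p = 0.0714). Crhbp and Penk were chosen after their values were seen.

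Of 18 ribbon synapse genes 3 were above and 2 below the mean in NZO, with a median of -0.04, and 2 kept the call in all fits, Stx3 (0.43) and Cacna2d4 (-0.24). Of 30 genes of TGF-beta and BMP signalling 2 were above and 4 below, with a median of -0.05, and Bmp1 (-0.42) kept the call. Of 19 retinoid genes 2 were lower, no larger a share than the 12.8% of all genes, with a median of -0.11, and neither kept its call in all fits. Of 55 clustered protocadherins, which give neurons surface identity, 11 were below the mean, Pcdhb6 (-0.47) by the most, with a median of -0.06, and 5 kept the call.

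Of 365 zinc finger genes, 56 were above and 36 below the mean in NZO (47 of 92 in all fits), beside 9.89% and 12.8% of all genes, and the median was 0.02. NZO stood apart at 6 of the 365, beside 1.90% of all genes, at Zfp949, Zfp607a and Zfp607b as given above and at Zfp658, Zfp354c and Zfp979. Zfp658 had 11.2, 11.5 and 12.2 cpm against 6.07 to 7.73 (median 6.69), and Zfp354c 24.2, 22.7 and 21.4 cpm against 16.1 to 19.1 (median 17.9). Both were higher in each NZO library than in the 12 others (0.60 and 0.31 to the nearest strain). The call of Zfp354c (adjusted p = 0.00919) was lost without NZO/HlLtJ replicate 1 (adjusted p = 0.0687). Zfp979 had 0.0879, 0.144 and 0.192 cpm against 0.346 to 1.596 (median 1.18) and was lower (-0.41, adjusted p = 0.0229). The call of Zfp979 was lost in 5 of the 15 fits that each left out 1 library, with adjusted p from 0.0524 to 0.128, the highest without NZO/HlLtJ replicate 1, and 32.4% of its exon words are shared with other genes.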

How the data were processed

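Total RNA of retina was sequenced after removal of ribosomal RNA, with a stranded library kit. The authors aligned reads to GRCm38 with STAR, quantified genes in Partek Flow by expectation maximization with an annotation they name as RefSeq, and deposited cpm, counts scaled to the total reads of a library, with 1e-04 added to every value. Versions are not stated, whether counting used the strand is not known, and fractional counts allow no count test. Values were taken as log2(cpm + 1). Testing took genes whose mean over the 15 libraries reached 0.5 cpm, which left 15811 of the 27810 genes outside chromosomes X and Y. limma 3.58.1 in R 4.3.3 fitted 1 mean per strain, with moderated variances that follow the mean level. A gene was apart when the difference of NZO had the same sign against each of the 4 strains and the largest of the 4 p-values, adjusted by Benjamini-Hochberg over all genes, was below 0.05. The other contrast set NZO against the mean of the 4 strains. Its SE and p-value measure the spread within strains only.

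Named genes were, in each direction, the 12 protein-coding genes that were apart without overlap and with the largest difference to the nearest strain, the apart genes of the gene lists, the marker genes, and the candidates from crosses with NZO. Some genes that these rules take in are not reported here. Other genes are said to be chosen after their values were seen. Members and lists were chosen with earlier results of these data known. The authors treated the 3 samples of a strain as biological replicates, and neither they nor the labels say how many animals a sample holds. Depth was inferred from the smallest steps between values, and limits of 3 reads cover counting error only. Gene coordinates, exon overlap and shared words of 31 bases were taken from GENCODE, where 97.5% of tested genes had the same coordinates, and promoters from RefSeq. Alternatives were another pseudocount, other limits on the mean, other scalings, an unmoderated model, a stricter threshold, other groupings of the strains, and leaving out single libraries, strains, or the libraries with lens or Xist RNA.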

Additional observations from a re-analysis of the deposited data

How the results depend on the processing

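The counts of genes apart in NZO (132 higher, 169 lower) were within 1.5 times of these values in 24 of 29 alternatives for higher and 23 of 29 for lower genes, and those against the mean of the 4 strains (1564 and 2025) in 24 and 25 of 28. With no limit on the mean, 225 genes were apart and higher. With a mean of at least 5 cpm, where fewer genes are tested, 74 were apart and higher, 99 apart and lower, 984 above the mean of the 4 strains and 1072 below it. Without the strain 129S1/Svlmj 241 were apart and higher and 339 lower, without C57BL/6J 234 and 286, and without A/J 254 were lower, each against 3 strains. Against all 7 strains the counts were 51 and 28, and at an adjusted p limit of 0.01 there were 111 lower genes. With the 12 other libraries as a single group, 353 genes were higher and 481 lower. Leaving out 1 library gave 93 to 130 apart and higher, 113 to 179 apart and lower, 970 to 1660 above the mean and 1327 to 2189 below it. The lowest counts against the mean came without NZO/HlLtJ replicate 1 (970 higher) and without NZO/HlLtJ replicate 2 (1034 higher, 1327 lower). The cause was not tested. Of 77 apart genes named in the text or tables, 56 kept their call in all alternatives run, up to 27 each. The Pde6c difference turned from -0.34 to 0.00789 without the strain C57BL/6J, and that of Guca1b from 0.24 to -0.0872 without the strain 129S1/Svlmj. Of calls against the mean, 43.6% were higher as deposited, 47.6% with median-ratio scaling and 53.4% with quantile normalization. Omission of the libraries with Xist RNA was chosen after seeing the data, as were the runs without lens-bearing libraries of the other strains' counts and of the comparison with 7 strains. Without the 2 libraries with Xist RNA, 9 of the 77 named apart genes lost their call. The limit of 0.5 cpm corresponded to 29.7 to 39.1 reads.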
